A study of Mus musculus with 9 samples.

Results

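The dystrophin glycoprotein complex was followed through 8 of its genes: Dmd, Utrn, Dag1, Sgca, Sgcb, Sgcd, Sspn and Sntb2. They were taken by symbol from the 47729 genes in the count files, and each symbol had a single row. The libraries came from cultured myoblasts, the dividing precursors of muscle fibres, of the mouse strain FVB/N, taken from skeletal muscle. The labels name 3 populations, Parental (PAR), FRCs Cycle 1 (written FRC1 here) and SRCs Cycle 3 (written SRC3), with 3 libraries each, and no treatment, genotype, age or sex is given for them. FRC1 and SRC3 are reserve cells, the cells of a myoblast culture that stay undifferentiated and single while others fuse. They were grown on and passaged under proliferation conditions before harvest, so they were not measured directly after isolation. The abbreviations FRC and SRC are not spelled out in the labels. Every FRC library is of cycle 1 and every SRC library of cycle 3. Kind of reserve cell and cycle therefore cannot be told apart in any comparison below. The labels do not say whether libraries of a group came from separate cultures, so the p-values below reflect no more than the scatter of these libraries, which may be technical.

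Dystrophin lies under the muscle cell membrane and ties cytoskeletal actin to dystroglycan, which spans the membrane and binds laminin outside the cell through sugar chains on its alpha subunit. The sarcoglycans and sarcospan form a membrane-embedded group beside dystroglycan, and syntrophins and dystrobrevins bind the dystrophin side and hold signalling proteins there. Utrophin, a close relative of dystrophin, forms a similar complex and prevails in immature muscle cells, while full-length dystrophin and several sarcoglycans are known to accumulate as myoblasts form fibres. Loss of dystrophin or of a sarcoglycan causes muscular dystrophy.

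Gene counts came to between 13012996 and 14336279 per library, so that 3 counts in a library, the floor used for detection here, stood for 0.21 to 0.231 CPM, the unit used for levels throughout, in which gene counts are divided by the library's total as scaled by TMM, a normalization factor between libraries. Myoblast markers were abundant in every library: the 7 listed genes together reached 2076 to 2122 CPM in the PAR libraries, 1928 to 2002 CPM in FRC1 and 1418 to 1521 CPM in SRC3, although Myf5 had no count in PAR or FRC1. A list of 12 genes of differentiating muscle summed to 9.95 to 12.8 CPM in PAR, 119 to 145 in FRC1 and 12.1 to 33.9 in SRC3. Of its 11 tested genes, 10 rose in FRC1 against PAR, 8 rose and 1 fell in SRC3 against PAR, and all 11 were lower in SRC3 than in FRC1. Of all tested genes, 13.6% rose in FRC1 against PAR, and 17.8% rose and 20.2% fell in SRC3 against PAR. In SRC3 against FRC1, 18% were lower. The 5 pericyte and smooth muscle markers summed to 64.2 to 74.1, 179 to 243 and 54.6 to 66.8 CPM, mostly from Acta2 and Cspg4. The similar sums in PAR and SRC3 covered opposite changes of these genes. Acta2 averaged 67.2 CPM in PAR, 199 in FRC1 and 8.59 in SRC3, and Cspg4 0.695, 7.82 and 52.3. Fibroblast markers summed to 3.14 to 5.74 CPM and Schwann and neural markers to 3.22 to 7.68, with Sox10 and S100b at 0 in all libraries. Endothelial markers summed to at most 0.56 CPM with Kdr at 0, and blood-derived markers to at most 4.4 with Adgre1 at 0. What part any of these lists had in the levels of the complex was not tested. In bulk RNA, fewer cells that make a transcript and less of it in each cell cannot be told apart.

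Set against PAR, the complex did not move as a block. In FRC1, 5 of the 8 genes fell (Utrn, Dag1, Sgca, Sgcd and Sspn), none rose, and Dmd, Sgcb and Sntb2 did not pass, where 28.3% of all tested genes passed, 13.6% as higher and 14.7% as lower. In SRC3, Dmd, Sgca, Sgcb and Sspn fell, Utrn rose, and Dag1, Sgcd and Sntb2 did not pass, against a background of 37.9% of all tested genes, 17.8% higher and 20.2% lower. Between the reserve populations, Utrn, Dag1 and Sgcd were higher in SRC3 than in FRC1, while Dmd, Sgca, Sgcb and Sspn were lower, and only Sntb2 did not pass, with 33.5% of all tested genes passing, 15.5% higher and 18% lower. The 5 calls in FRC1 against PAR became 3 without PAR replicate 3 or FRC1 replicate 2. Among the FRC1 libraries, replicate 2 was the lowest for Utrn, Dag1, Sgca, Sgcb and Sntb2. Calls came from the quasi-likelihood test of edgeR, with p-values adjusted after Benjamini and Hochberg over the 12540 tested genes and a threshold of 0.05, and every adjusted p below comes from it unless another tool is named.

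The median log2 fold change of the 8 genes was -0.21 in FRC1 against PAR, -0.24 in SRC3 against PAR and -0.13 in SRC3 against FRC1, and that of all tested genes was 0, 0.01 and 0. Groups did not overlap for 5, 5 and 7 of the 8 genes, against 44.2, 49.1 and 42.8% of all tested genes. FRC1 and SRC3 were each set against the same PAR libraries, so these comparisons are not independent of each other. Of the 8 genes, 7 reached the filter on low counts in all 9 libraries. Dmd passed it at 0.734 CPM through 2 PAR and 2 FRC1 libraries and in no SRC3 library, so its entry depended on the groups in which it was higher. Without Dmd, 4 of 7 genes passed in SRC3 against PAR and 6 of 7 in SRC3 against FRC1.

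**Figure D1:**
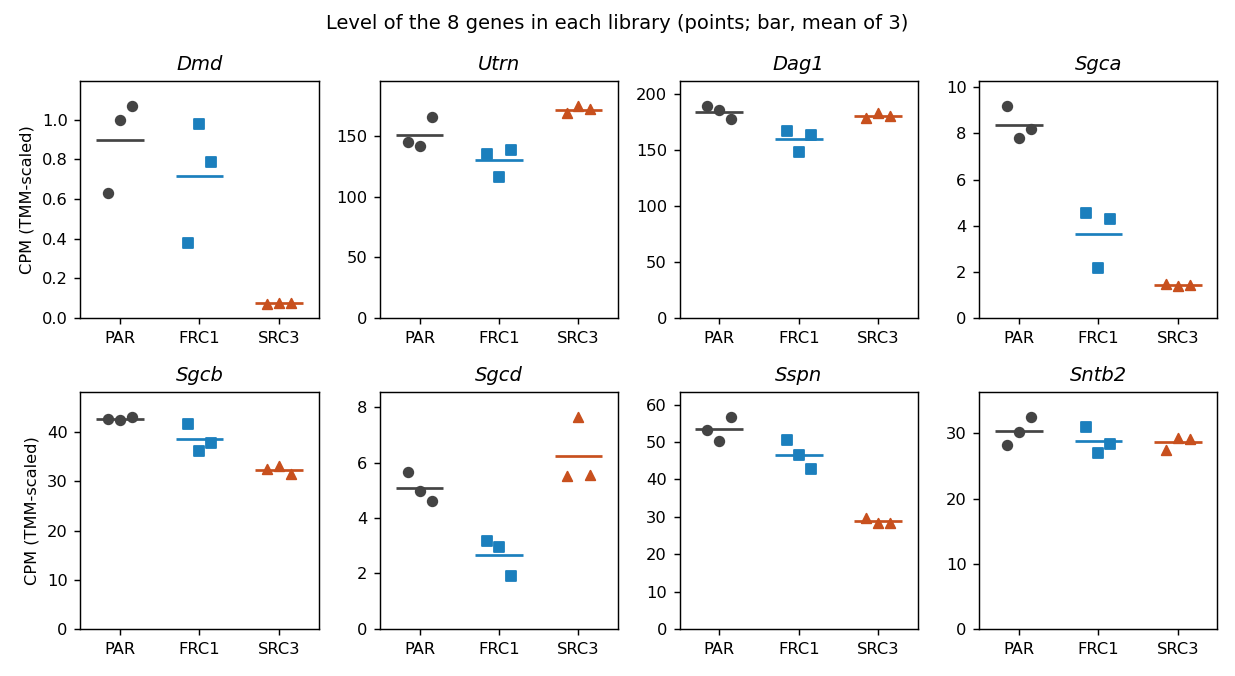
Level of each of the 8 genes in each library, in CPM scaled by TMM on an axis from 0. Points are single libraries, horizontal bars are means of 3. The SRC3 libraries lie lowest for Dmd, Sgca, Sgcb and Sspn and highest for Utrn, and the FRC1 libraries lie lowest for Dag1 and Sgcd.

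Dmd encodes dystrophin, the cytoplasmic core of the complex (ENSMUSG00000045103, GRCm38 chromosome X, 82948870 to 85206141, plus strand, 84 exonic blocks in GENCODE M21). It was close to the limit of detection throughout. The PAR libraries held 9, 13 and 15 reads, the FRC1 libraries 5, 14 and 11, and each SRC3 library a single read. In CPM these were 0.63, 0.995 and 1.07 in PAR, then 0.379, 0.98 and 0.784 in FRC1, and 0.0733, 0.0771 and 0.076 in SRC3. PAR and FRC1 overlapped, and all SRC3 libraries lay below the other 6 and below the floor of 3 counts. Group sums of 37 reads in PAR and 3 in SRC3 gave a ratio of 11.8 (95% interval 3.75 to 60, counting error only). The ratio of FRC1, with 30 reads, to SRC3 was 9.58 (2.98 to 49). Since Dmd entered the fit only through PAR and FRC1 libraries, its calls against SRC3 are not taken as support. FRC1 against PAR had a log2 fold change of -0.31 (95% interval -1.10 to 0.49, adjusted p = 0.59). Under the stricter filter of 5 CPM, Dmd was not tested.

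Dmd has several promoters, and the reads behind a gene count cannot be assigned to them. RefSeq lists 2 Dmd starts in its promoter table for GRCm38.p6, 2.1 Mb apart. The upstream start precedes 66 exonic blocks, and 18 lie after the downstream start, which begins a short product and leaves 36.6% of the exonic bases after it. Both windows, each reaching 250 bases upstream and 50 bases downstream of the start, are shown because they differ in composition. Capitals mark each match to CANNTG, the E-box bound by basic helix-loop-helix factors such as MyoD, which reads the same on both strands.
Dmd upstream start, chrX:82948620-82948919, plus strand: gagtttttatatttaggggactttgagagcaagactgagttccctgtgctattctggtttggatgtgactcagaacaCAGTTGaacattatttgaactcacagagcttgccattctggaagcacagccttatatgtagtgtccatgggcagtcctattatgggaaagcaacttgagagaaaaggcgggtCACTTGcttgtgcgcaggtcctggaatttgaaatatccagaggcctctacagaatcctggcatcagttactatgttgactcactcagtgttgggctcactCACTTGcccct
Dmd downstream start, chrX:85048045-85048344, plus strand: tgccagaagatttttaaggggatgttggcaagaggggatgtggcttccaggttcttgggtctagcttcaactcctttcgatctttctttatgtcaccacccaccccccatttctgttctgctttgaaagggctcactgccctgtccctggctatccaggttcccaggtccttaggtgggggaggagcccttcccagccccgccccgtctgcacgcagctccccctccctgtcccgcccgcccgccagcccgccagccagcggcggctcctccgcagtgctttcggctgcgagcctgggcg
The upstream window held 3 matches to CANNTG, 2 CG dinucleotides and a GC content of 45.7%. The downstream window held 0 matches, 14 CG dinucleotides and a GC content of 62.7%, with 3 matches to GGGCGG on either strand, the core of the GC box. Of all 32851 promoter windows of this length in the table, 72.3% held at least 1 CANNTG and 35.7% at least 1 GGGCGG. These matches describe the sequence and are not evidence that a factor binds there.

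Utrn encodes utrophin, the dystrophin relative that can take its place under the membrane (ENSMUSG00000019820, chromosome 10, 12382188 to 12869365, minus strand). It was expressed in all libraries, at 145, 142 and 166 CPM in PAR, against 135, 117 and 139 in FRC1, and 169, 174 and 172 in SRC3. No pair of groups overlapped, with FRC1 lowest and SRC3 highest. Means were 151 ± 13.1 CPM in PAR, 130.2 ± 11.8 in FRC1 and 172 ± 2.91 in SRC3 (SD, n = 3). The fall in FRC1 had a log2 fold change of -0.21 (SE 0.066, adjusted p = 0.021, edgeR), and the call was lost without PAR replicate 3 (0.14) or FRC1 replicate 2 (0.12). The rise in SRC3 against PAR was 0.19 (SE 0.066, adjusted p = 0.032, edgeR). It was lost without PAR replicate 1 (0.12), PAR replicate 2 (0.14), or SRC3 replicate 1 (0.054), 2 (0.067) or 3 (0.056). Utrn was 1.32-fold higher in SRC3 than in FRC1 (log2 0.40, SE 0.066, adjusted p = 1e-04, edgeR), and this call held in all 17 alternatives.

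Drp2, dystrophin related protein 2, is a further relative of dystrophin that is best known from Schwann cells, where it joins a dystroglycan complex with periaxin (ENSMUSG00000000223, chromosome X, 134404551 to 134456573, plus strand). It had 68.8, 67.9 and 71 CPM in PAR, then 84.7, 64.7 and 70.6 in FRC1 and 37.6, 43.7 and 34.9 in SRC3, so the SRC3 libraries lay below all others. It fell 1.79-fold in SRC3 against PAR (log2 -0.84, SE 0.095, adjusted p = 5.6e-06, edgeR) and was 1.89-fold lower than in FRC1 (log2 -0.92, SE 0.095, adjusted p = 2.4e-06). FRC1 against PAR was 0.08 with an adjusted p of 0.54. The Schwann and neural markers Sox10 and S100b had no read in any library.

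Per kb of exon, Utrn and Drp2 made up nearly all of the transcripts of these 3 related genes, and their balance differed between populations. Utrn held 51.3, 50.9 and 53.7% of the summed level per kb in PAR, then 44.3, 47.3 and 49.5% in FRC1, and 69.1, 66.6 and 71.2% in SRC3. All SRC3 libraries lay above the others, and all FRC1 libraries lay below PAR. Dmd held 0.222 ± 0.054% in PAR, 0.192 ± 0.098% in FRC1 and 0.0218 ± 7e-04% in SRC3 (SD, n = 3). Each SRC3 library held a single Dmd read, so the small SD there leaves out the counting error. With the length of the longest coding transcript in place of all exonic bases, an alternative chosen after seeing the data, the share of Utrn was 55.5, 50.5 and 71.9% on average, with the same order of groups. An exact permutation test of 3 against 3 libraries cannot give a two-sided p below 0.1, so the shares in this and later paragraphs are given as values.

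**Figure D2:**
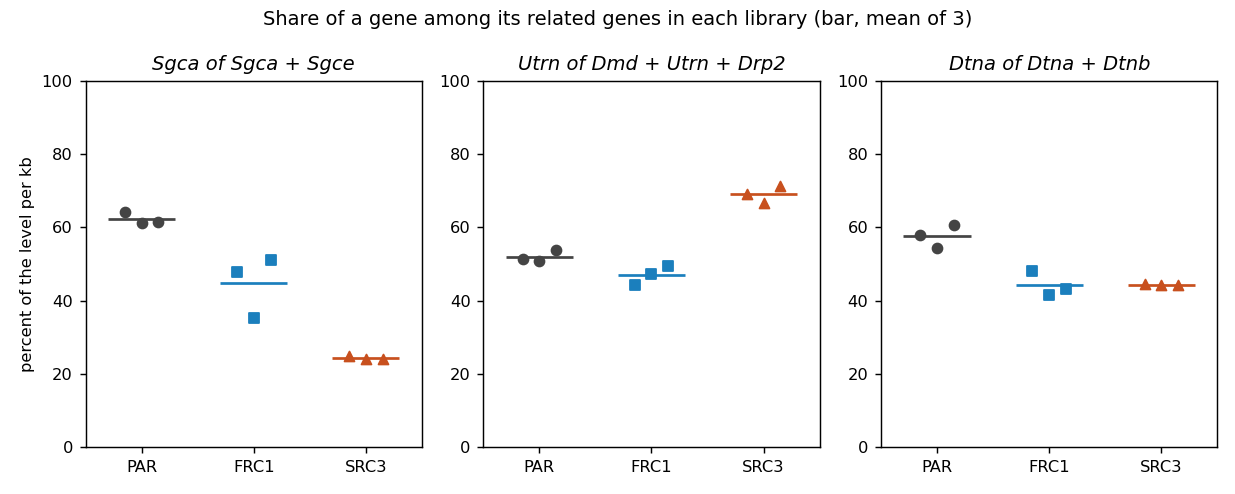
Share of Sgca among Sgca and Sgce, of Utrn among Dmd, Utrn and Drp2, and of Dtna among Dtna and Dtnb in each library, as percent of the summed level per kb of exon. Points are libraries and bars means of 3. The share of Utrn is 66.6 to 71.2% in SRC3 and at most 53.7% elsewhere, and that of Sgca is 23.9 to 24.9% in SRC3 and at least 61.3% in PAR.

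Dag1 encodes dystroglycan, whose alpha and beta subunits are cut from a single precursor (ENSMUSG00000039952, chromosome 9, 108204634 to 108263958, minus strand). It was the most abundant of the 8 genes per length in every group. The libraries had 189, 186 and 177 CPM in PAR, against 167, 148 and 163 in FRC1, and 178, 183 and 179.7 in SRC3. FRC1 lay below both other groups, and PAR and SRC3 overlapped. Dag1 fell in FRC1 against PAR (log2 -0.21, SE 0.052, adjusted p = 0.0054, edgeR). SRC3 against PAR was -0.03 (95% interval -0.14 to 0.08, adjusted p = 0.71, edgeR). SRC3 against FRC1 was 0.18 (SE 0.052, adjusted p = 0.011, edgeR), a call lost without FRC1 replicate 2 (0.053).

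Alpha-dystroglycan binds laminin only after a chain of enzymes has built its sugar, and all 19 of the enzymes listed here were tested. In FRC1 against PAR, where Dag1 fell, 8 of the 19 rose, 1 fell and 10 did not pass, with a median log2 fold change of 0.18, beside 13.6% higher and 14.7% lower among all tested genes. In SRC3 against PAR 6 rose, 4 fell and 9 did not pass (median 0.05, and 17.8% higher and 20.2% lower among all tested genes), and the calls dropped from 10 to 6 without SRC3 replicate 3. In SRC3 against FRC1 1 was higher, 10 were lower and 8 did not pass (median -0.21, and 15.5% higher and 18% lower among all tested genes). That last count of calls, 11, became 4 without FRC1 replicate 3, 6 without FRC1 replicate 1 or SRC3 replicate 1, and 7 without SRC3 replicate 3.

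Gmppb and Gmppa, a GDP-mannose pyrophosphorylase and its regulatory partner in supplying mannose, rose in both reserve populations. Gmppb had 16.1, 16.2 and 14.3 CPM in PAR, then 26.7, 26.9 and 27.4 in FRC1 and 23.6, 24.1 and 20.4 in SRC3. No groups overlapped. Its log2 fold changes were 0.80 in FRC1 (adjusted p = 2.3e-06, edgeR) and 0.55 in SRC3 (adjusted p = 7.7e-05) against PAR. Of its exonic bases 33.64% lie opposite an exon of Rnf123, so reads of the pair could be mixed if strand was not used in counting. Gmppa had 36.7 to 37.9 CPM in PAR, 50.7 to 53.3 in FRC1 and 48.5 to 53.1 in SRC3, with log2 fold changes of 0.48 (adjusted p = 1.3e-05) and 0.47 (adjusted p = 6.5e-06).

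Large2, a paralog of the enzyme that extends the laminin-binding sugar, had 0.98, 0.383 and 0.782 CPM in PAR, against 1.82, 2.8 and 2.64 in FRC1, and 1.54, 1.23 and 1.44 in SRC3. FRC1 lay above both other groups and SRC3 above PAR. The rise in FRC1 was 1.73 on the log2 scale (adjusted p = 0.00037, edgeR) and held in all 16 alternatives that tested it. SRC3 against PAR, 0.95 (adjusted p = 0.037), was lost without PAR replicate 2 (0.17), PAR replicate 3 (0.069), or SRC3 replicate 1 (0.11) or 3 (0.071), and by DESeq2 (0.077). Dpm1, of dolichol-phosphate mannose synthase, rose in SRC3 against PAR (log2 0.58, adjusted p = 0.032), a call lost without PAR replicate 1 (0.19), PAR replicate 2 (0.075), or SRC3 replicate 1 (0.1) or 3 (0.052), and by DESeq2 (0.065). Of the exonic bases of Dpm1 11.95% are shared with the gene Gm20716 on the same strand, where strand cannot separate the reads.

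Sgca encodes alpha-sarcoglycan, the subunit largely restricted to striated muscle (ENSMUSG00000001508, chromosome 11, 94962791 to 94976327, minus strand). It was highest in PAR and lowest in SRC3. The libraries had 9.17, 7.81 and 8.17 CPM in PAR, then 4.55, 2.17 and 4.28 in FRC1, and 1.47, 1.39 and 1.44 in SRC3. No library of a group overlapped with another group. Means were 8.39 ± 0.705, 3.66 ± 1.3 and 1.43 ± 0.0403 CPM (SD, n = 3). Sgca fell 2.30-fold in FRC1 against PAR (log2 -1.20, SE 0.193, adjusted p = 0.00012, edgeR) and 5.82-fold in SRC3 against PAR (log2 -2.54, SE 0.232, adjusted p = 3.3e-08). SRC3 was 2.53-fold lower than FRC1 (log2 -1.34, SE 0.265, adjusted p = 0.00052). All 3 calls held in all 17 alternatives. The summed myoblast markers had the same order, at 2076 to 2122 CPM in PAR, 1928 to 2002 in FRC1 and 1418 to 1521 in SRC3. Not every marker followed it. Of the 5 tested, 2 fell and 1 rose in FRC1 against PAR, and 4 fell and 1 rose in SRC3 against PAR. Of all tested genes, 14.7% fell and 13.6% rose in FRC1, and 20.2% fell and 17.8% rose in SRC3. Ncam1 rose in both (log2 0.25, adjusted p = 0.0016, and 0.21, adjusted p = 0.0035, edgeR). The summed markers of differentiating muscle had another order, highest in FRC1 at 119 to 145 CPM. The part of either list in the level of Sgca was not tested.

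Sgcd encodes delta-sarcoglycan, which pairs with beta-sarcoglycan in the core of the subcomplex (ENSMUSG00000020354, chromosome 11, 46896253 to 47988969, minus strand). It was lowest in FRC1. The libraries had 5.67, 4.98 and 4.62 CPM in PAR, against 3.18, 2.94 and 1.92 in FRC1, and 5.5, 7.64 and 5.55 in SRC3. FRC1 lay below both other groups, and PAR and SRC3 overlapped. The fall in FRC1 was 1.90-fold (log2 -0.93, SE 0.206, adjusted p = 0.0022, edgeR). SRC3 was 2.32-fold above FRC1 (log2 1.21, SE 0.201, adjusted p = 8.3e-05), and both calls held in all 17 alternatives. SRC3 against PAR was 0.29 (95% interval -0.09 to 0.66, adjusted p = 0.22).

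Between FRC1 and SRC3, Sgca and Sgcd moved in opposite directions by similar amounts, and their start windows are therefore shown, read on the minus strand in the direction of the gene, with matches to CANNTG in capitals. The Sgcd start listed by RefSeq, at 47379325, lies inside the gene, whose upstream end in GENCODE M21 is at 47988969.
Sgca, chr11:94976278-94976577, minus strand: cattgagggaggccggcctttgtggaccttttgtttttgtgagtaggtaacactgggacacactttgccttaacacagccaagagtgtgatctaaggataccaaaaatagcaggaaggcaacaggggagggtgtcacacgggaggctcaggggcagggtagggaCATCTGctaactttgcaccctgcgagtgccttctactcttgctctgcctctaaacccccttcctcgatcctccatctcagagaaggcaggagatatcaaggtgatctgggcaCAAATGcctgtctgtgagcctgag
Sgcd, chr11:47379276-47379575, minus strand: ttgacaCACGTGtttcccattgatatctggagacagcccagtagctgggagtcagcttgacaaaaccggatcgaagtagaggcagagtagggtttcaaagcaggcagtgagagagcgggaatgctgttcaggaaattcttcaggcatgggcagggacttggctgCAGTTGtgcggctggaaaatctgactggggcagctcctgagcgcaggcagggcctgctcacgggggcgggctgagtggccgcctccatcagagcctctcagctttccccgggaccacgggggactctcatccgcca
Each window held 2 matches to CANNTG and neither held CAGCTG, a form of the E-box present in 16.3% of all windows. They differed in composition, with 4 CG dinucleotides and 52.7% GC in Sgca and 12 and 59% in Sgcd, against a median of 7 CG dinucleotides over all windows. Among the other windows in the table, that of Utrn held 7 matches to CANNTG, each of the pair for Dag1 held 1, and that of Sgcb held 0. The pair for Sspn held 0 and 1. In all, 7 of the 8 genes had an entry, with 10 windows.

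Sgcb encodes beta-sarcoglycan, made in many tissues (ENSMUSG00000029156, chromosome 5, 73632749 to 73647790, minus strand). It had 42.8, 42.4 and 43.1 CPM in PAR, then 41.8, 36.1 and 37.9 in FRC1 and 32.6, 33.2 and 31.5 in SRC3. The groups did not overlap and followed the order of Sgca over a far smaller range. SRC3 against PAR was a 1.32-fold fall (log2 -0.40, SE 0.069, adjusted p = 0.00012, edgeR) that held in all 17 alternatives. FRC1 against PAR was -0.15 (95% interval -0.29 to -0.01, adjusted p = 0.11) and passed only without FRC1 replicate 1 (0.035). SRC3 against FRC1 was -0.25 (SE 0.07, adjusted p = 0.0088), lost without the same library (0.054).

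Sgce, epsilon-sarcoglycan, a widely expressed relative of alpha-sarcoglycan, had 31.4, 30.2 and 31.2 CPM in PAR, against 30.2, 24.4 and 24.9 in FRC1 and 27, 26.9 and 28.2 in SRC3. Its log2 fold change in FRC1 against PAR was -0.22 with an adjusted p of 0.04959 (edgeR), on groups that overlapped, and 9 of 17 alternatives lost the call (adjusted p from 0.0047 to 0.19 over all). Among them were the fits without PAR replicate 1 (0.13), 2 (0.072) or 3 (0.11), FRC1 replicate 2 (0.19) or 3 (0.18), or SRC3 replicate 1 (0.059). SRC3 against PAR was -0.18 (adjusted p = 0.1). Sgcz, zeta-sarcoglycan, was too low to be tested, with 1 read in PAR, 4 in FRC1 and 3 in SRC3, summed over 3 libraries.

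Sgca and Sgce can fill the same position in the complex. Per kb of exon, Sgca held 64.1, 61.3 and 61.6% of their summed level in PAR, then 47.9, 35.2 and 51.2% in FRC1, and 24.9, 24 and 23.9% in SRC3, with no overlap. The transcripts of Sgce cover 10612 exonic bases and its longest coding transcript 1776. With the length of the longest coding transcript, the mean share of Sgca was 21.8% in PAR, 12.3% in FRC1 and 5.12% in SRC3. Which of the pair was higher thus depended on the length used in PAR, while in SRC3 Sgce was higher under both lengths, and in FRC1 it was so on average. The order of the groups was the same under both.

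Sspn encodes sarcospan, a small membrane protein with 4 spans held beside the sarcoglycans (ENSMUSG00000030255, chromosome 6, 145931641 to 145965223, plus strand). It had 53.3, 50.2 and 56.6 CPM in PAR, then 50.6, 46.6 and 42.7 in FRC1, and 29.8, 28.3 and 28.4 in SRC3. All SRC3 libraries lay below the others, and PAR and FRC1 overlapped. Sspn fell 1.85-fold in SRC3 against PAR (log2 -0.89, SE 0.074, adjusted p = 8.9e-09, edgeR) and was 1.62-fold lower than in FRC1 (log2 -0.69, SE 0.075, adjusted p = 4.5e-07), and both calls held in all 17 alternatives. The fall in FRC1 against PAR, -0.20 (SE 0.07, adjusted p = 0.043), was lost without PAR replicate 1 (0.097), PAR replicate 3 (0.18), FRC1 replicate 2 (0.084) or FRC1 replicate 3 (0.22). It was also lost with library sizes alone (0.055) and with DESeq2 (0.079). Of its exonic bases 1.38% lie opposite the antisense gene Sspnos, the only exonic overlap found among the 8 genes.

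**Figure D3:**
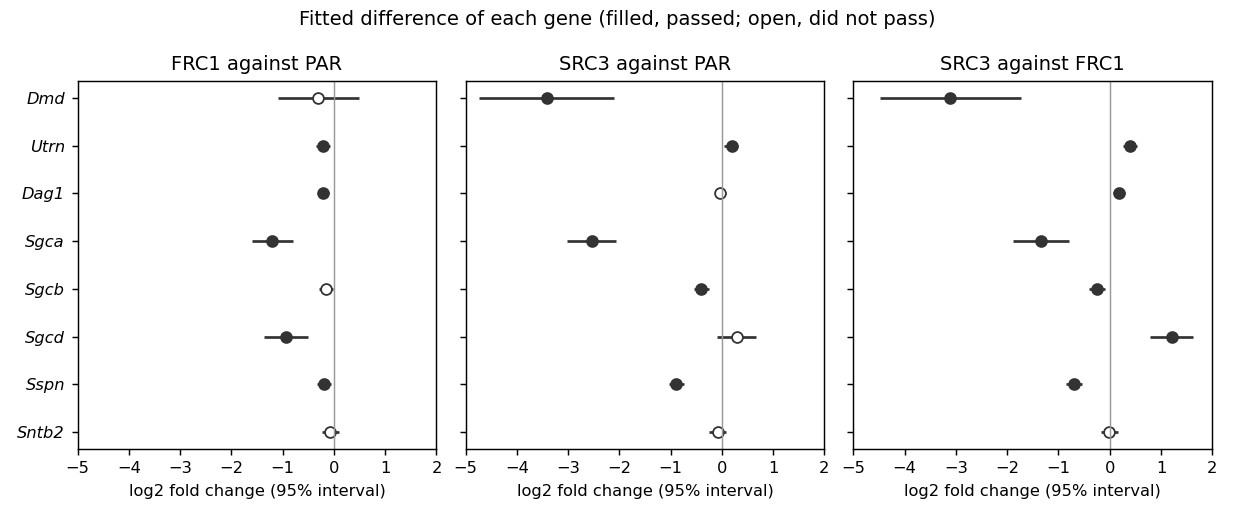
Fitted log2 fold change of each of the 8 genes in the 3 comparisons, with 95% intervals. Filled points passed at an adjusted p of 0.05 and open points did not. Sgca lies left of 0 in all panels, Sgcd is at -0.93 in FRC1 against PAR and at 1.21 in SRC3 against FRC1, and Sntb2 lies near 0 throughout. Dmd was admitted to the fit through PAR and FRC1 libraries alone.

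Sntb2 encodes beta-2-syntrophin, an adaptor that binds dystrophin, utrophin and dystrobrevin (ENSMUSG00000041308, chromosome 8, 106935750 to 107019714, plus strand). It was the gene of the 8 with no call in any comparison. The libraries had 28.3, 30.2 and 32.5 CPM in PAR, against 31, 26.9 and 28.4 in FRC1, and 27.5, 29.3 and 29.1 in SRC3, and all groups overlapped. The 95% intervals of its log2 fold changes were -0.24 to 0.09 in FRC1 and -0.25 to 0.08 in SRC3 against PAR, and -0.17 to 0.16 between the reserve populations. The adjusted p were 0.51, 0.44 and 0.97 (edgeR).

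Its relative Sntb1 differed between populations. Sntb1, beta-1-syntrophin, had 5.74, 4.67 and 7.89 CPM in PAR, then 4.24, 4.48 and 4.99 in FRC1, and 1.61, 3.09 and 2.28 in SRC3, where all libraries lay below the rest. It fell 2.64-fold in SRC3 against PAR (log2 -1.40, SE 0.228, adjusted p = 6.1e-05, edgeR) and was lower than in FRC1 (log2 -0.98, SE 0.238, adjusted p = 0.0032). Sntg1 and Sntg2, the gamma syntrophins, had 0 reads.

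The dystrobrevins bind dystrophin or utrophin directly and carry syntrophins with them. Dtna, alpha-dystrobrevin, had 36.9, 34.2 and 39.4 CPM in PAR, against 28.4, 20.6 and 24.3 in FRC1, and 29.6, 29.9 and 27.4 in SRC3. PAR lay above both reserve populations. Dtna fell in FRC1 (log2 -0.59, SE 0.095, adjusted p = 0.00012, edgeR) and in SRC3 (log2 -0.35, SE 0.094, adjusted p = 0.0062) against PAR. Dtnb, beta-dystrobrevin, the form of non-muscle tissues, had 15.3, 16.2 and 14.5 CPM in PAR and 21, 21.4 and 19.5 in SRC3, a rise of 0.43 (SE 0.09, adjusted p = 8e-04). Its FRC1 libraries, at 17.4, 16.5 and 18.2 CPM, lay between those of the other groups (log2 0.18 against PAR, adjusted p = 0.16). Dtna held 57.6 ± 3.1% of the summed level per kb of the pair in PAR, 44.3 ± 3.5% in FRC1 and 44.3 ± 0.14% in SRC3 (SD, n = 3).

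Of the 12 genes listed as further parts of the complex 6 were tested, among them Drp2, Sgce, Sntb1, Dtna and Dtnb. In FRC1 against PAR none rose and 2 fell, in SRC3 against PAR 2 rose and 3 fell, and in SRC3 against FRC1 1 was higher and 2 were lower. Among all tested genes 28.3, 37.9 and 33.5% passed in these comparisons. The 2 calls in FRC1 against PAR became 1 without FRC1 replicate 2 or 3, and 4 without FRC1 replicate 1, SRC3 replicate 2 or SRC3 replicate 3. The 3 calls in SRC3 against FRC1 became 5 without PAR replicate 1, 2 or 3, without FRC1 replicate 1 or without SRC3 replicate 3. Nos1, the neuronal nitric oxide synthase that syntrophin and dystrophin hold at the membrane of mature fibres, had 2, 1 and 6 reads summed over the groups. Cav3, the muscle caveolin that binds beta-dystroglycan, had 2 reads in PAR, 42 in FRC1 and 4 in SRC3. The FRC1 libraries, at 0.682, 1.19 and 1.14 CPM, lay above all others. The ratio of FRC1 to PAR was 20.9 (95% interval 5.45 to 179). Cav3 was below the filter, and without it its adjusted p was 6.7e-07 for FRC1 against PAR and 1.4e-05 for SRC3 against FRC1 (edgeR). Cav3 thus had its highest level in FRC1, where the markers of differentiating muscle summed to 119 to 145 CPM against at most 33.9 elsewhere. The part of those markers in the result was not tested.

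**Figure D4:**
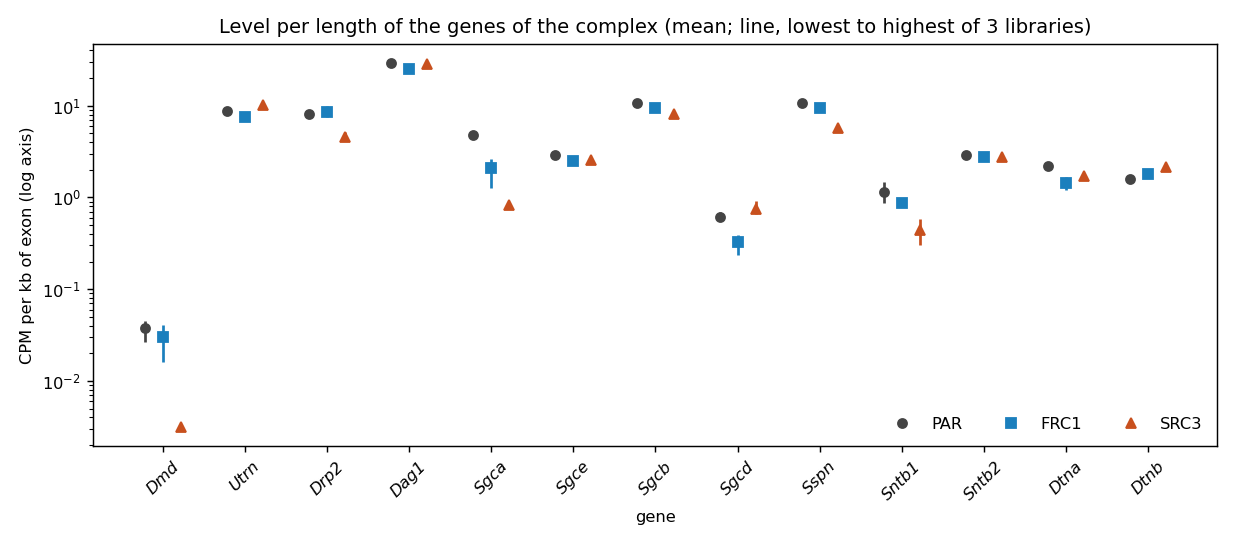
Level per length of the 8 genes and 5 tested further genes of the complex, as CPM per kb of exon on a log axis. Points are means of 3 libraries and lines run from the lowest to the highest library. Dag1 is highest in every group and Dmd lowest, and Dmd and Sgca show the widest spread between groups.

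Compared per length, the 8 genes kept much of their order between populations. In PAR, Dag1 came first at 28.9 CPM per kb of exon, followed by Sspn at 10.7 and Sgcb at 10.6, whose libraries overlapped, Utrn at 8.82, Sgca at 4.83, Sntb2 at 2.93, Sgcd at 0.616 and Dmd at 0.0377. In FRC1, Dag1 stood at 25.1, Sgcb at 9.53, Sspn at 9.34, Utrn at 7.61, Sntb2 at 2.78, Sgca at 2.11, Sgcd at 0.325 and Dmd at 0.03. The libraries overlapped there for Sgcb and Sspn and for Sntb2 and Sgca. In SRC3, Dag1 stood at 28.4, Utrn at 10.04, Sgcb at 8, Sspn at 5.77, Sntb2 at 2.77, Sgca at 0.826, Sgcd at 0.754 and Dmd at 0.00317. Only Sgca and Sgcd overlapped there. With the length of the longest coding transcript, Utrn came second in all groups, at 12.2, 10.5 and 13.9 CPM per kb, and overlapped with Sspn in PAR and with Sspn and Sgcb in FRC1. In SRC3 Sgcd, at 2.25 to 3.12 CPM per kb, then lay above Sgca, at 0.805 to 0.851. Dag1 was highest and Dmd lowest under both lengths.

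The genes nearest to the 3 most variable members were found by Pearson correlation of log2 CPM over the 9 libraries. For Sgca they were Zfp507 (r = 0.9896), Ank1 (0.988) and Arnt (0.9871). Ank1, an ankyrin, averaged 51.9 CPM in PAR, 21.3 in FRC1 and 8.05 in SRC3, a range close to that of Sgca, while Zfp507 went only from 69.3 to 60.4. For Dmd, whose values rest on 1 to 15 reads a library, they were Zbtb24 (0.9778), Fxr1 (0.9742) and Glis3 (0.9725), and for Sgcd Uhrf1bp1 (0.9756), Tmem246 (0.972) and Cryz (0.9717). These values describe 9 libraries in 3 groups, which share their group differences and depth.

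Outside the cell, dystroglycan meets laminins, agrin and perlecan. Of 11 matrix genes 7 were tested. In FRC1 against PAR 1 rose and 3 fell (median log2 fold change -0.08), in SRC3 against PAR 1 rose and 3 fell (-0.07), and in SRC3 against FRC1 2 were higher and 4 lower (-0.23), against 28.3, 37.9 and 33.5% of all tested genes that passed in either direction. The 4 calls in FRC1 against PAR became 2 without PAR replicate 2, PAR replicate 3 or FRC1 replicate 3.

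Lama2, the laminin alpha chain of the muscle basement membrane and a ligand of dystroglycan, followed the same order as Sgca. It had 52.9, 50.9 and 56.1 CPM in PAR, then 30.9, 24 and 32.8 in FRC1, and 13.3, 16.2 and 17.1 in SRC3, with no overlap. It fell in FRC1 (log2 -0.87, adjusted p = 8.3e-06, edgeR) and 3.44-fold in SRC3 (log2 -1.78, adjusted p = 9.4e-10) against PAR. SRC3 was lower than FRC1 (log2 -0.91, adjusted p = 8.6e-06). Lama5, the alpha chain of many embryonic and epithelial laminins, had 252 to 273 CPM in PAR, 190 to 238 in FRC1 and 298 to 374 in SRC3. It rose in SRC3 against PAR (log2 0.35, adjusted p = 0.0098). Its fall in FRC1 (-0.31, adjusted p = 0.028) ranged from 1.5e-07 to 0.082 over the alternatives and was lost without PAR replicate 2 (0.067), PAR replicate 3 (0.082), FRC1 replicate 2 (0.061), FRC1 replicate 3 (0.075) or SRC3 replicate 3 (0.066). Lamb2, a beta chain of muscle laminin, was lower in SRC3 than in PAR (-0.37, adjusted p = 8.3e-05) and FRC1 (-0.29, adjusted p = 0.0012). Lamc1, the common gamma chain, fell in FRC1 against PAR (-0.27, adjusted p = 0.0012) and was higher in SRC3 than in FRC1 (0.29, adjusted p = 0.00038). Hspg2, perlecan, was lower in SRC3 than in PAR (-0.46, adjusted p = 0.0069) and FRC1 (-0.42, adjusted p = 0.012), and both calls were lost without SRC3 replicate 3 (0.055 and 0.082).

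Integrins with a laminin-binding alpha chain link the same matrix to the cell by another route. All 5 listed chains were tested, with 1 higher and 1 lower in FRC1 against PAR and 1 higher in each comparison with SRC3, where 28.3% of all tested genes passed in FRC1 against PAR, 37.9% in SRC3 against PAR and 33.5% in SRC3 against FRC1. The list's median log2 fold changes were 0.01, 0.11 and 0.06. The 2 calls in FRC1 against PAR became 1 without PAR replicate 1, PAR replicate 2 or FRC1 replicate 2. The single call became 2 without SRC3 replicate 1 or 3 in SRC3 against PAR, and without FRC1 replicate 1 or SRC3 replicate 3 in SRC3 against FRC1. Itga6, the alpha-6 chain, had 268, 287 and 276 CPM in PAR, against 232, 214 and 221 in FRC1, and 409.7, 415 and 441 in SRC3, with no overlap. It fell in FRC1 (log2 -0.32, adjusted p = 7.3e-05, edgeR) and rose in SRC3 (log2 0.61, adjusted p = 4.1e-09) against PAR. The sequence of groups was that of Utrn. Itgb1, the shared beta-1 chain, rose in FRC1 (log2 0.20, adjusted p = 0.014), a call lost without PAR replicate 1 (0.057), PAR replicate 2 (0.061) or FRC1 replicate 2 (0.12).

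On the inside, the complex sits in costameres, the rib-like structures that couple myofibrils and intermediate filaments to the membrane. Of 12 linkers 10 were tested. In FRC1 against PAR 1 rose, 4 fell and 5 did not pass (median -0.19), with 2 calls in all without PAR replicate 3 or FRC1 replicate 3, 3 without PAR replicate 2, 9 without SRC3 replicate 2, 8 without a filter and 9 when only the 2 groups compared were fitted. In SRC3 against PAR 8 fell and 2 did not pass (median -0.42), and in SRC3 against FRC1 4 were lower (median -0.19). Among all tested genes 28.3% passed in FRC1 against PAR, 20.2% were lower in SRC3 than in PAR and 18% lower in SRC3 than in FRC1. Des, desmin, the intermediate filament of muscle, had 749, 730 and 715 CPM in PAR, then 645, 596 and 623 in FRC1, and 462, 494 and 460.4 in SRC3. Its groups did not overlap, with log2 fold changes of -0.24 (adjusted p = 0.00069, edgeR) and -0.63 (adjusted p = 1.2e-09) against PAR. Flnc, filamin C, which binds sarcoglycans, was lower in SRC3 than in PAR (log2 -0.69, adjusted p = 3e-07) and FRC1 (log2 -0.52, adjusted p = 8.6e-06).

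The ankyrins that hold dystrophin and dystroglycan at costameres were also lower. Ank2 fell in FRC1 (log2 -0.44, adjusted p = 4.7e-05, edgeR) and SRC3 (-0.43, adjusted p = 2.9e-05) against PAR. Ank3 fell in SRC3 against PAR (-0.84, adjusted p = 0.0017), and its difference between SRC3 and FRC1 (-0.43, adjusted p = 0.04975) was lost in 10 of 17 alternatives (0.0018 to 0.16 over all). It was kept in the fits that left out a library only without FRC1 replicate 2 or SRC3 replicate 2. Krt19, a keratin that binds dystrophin, fell in SRC3 against PAR (-0.76, adjusted p = 0.0059). Its fall in FRC1 (-0.60, adjusted p = 0.024) was lost without PAR replicate 1 (0.07), PAR replicate 2 (0.055), PAR replicate 3 (0.062), FRC1 replicate 2 (0.085) or FRC1 replicate 3 (0.075).

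**Figure D5:**
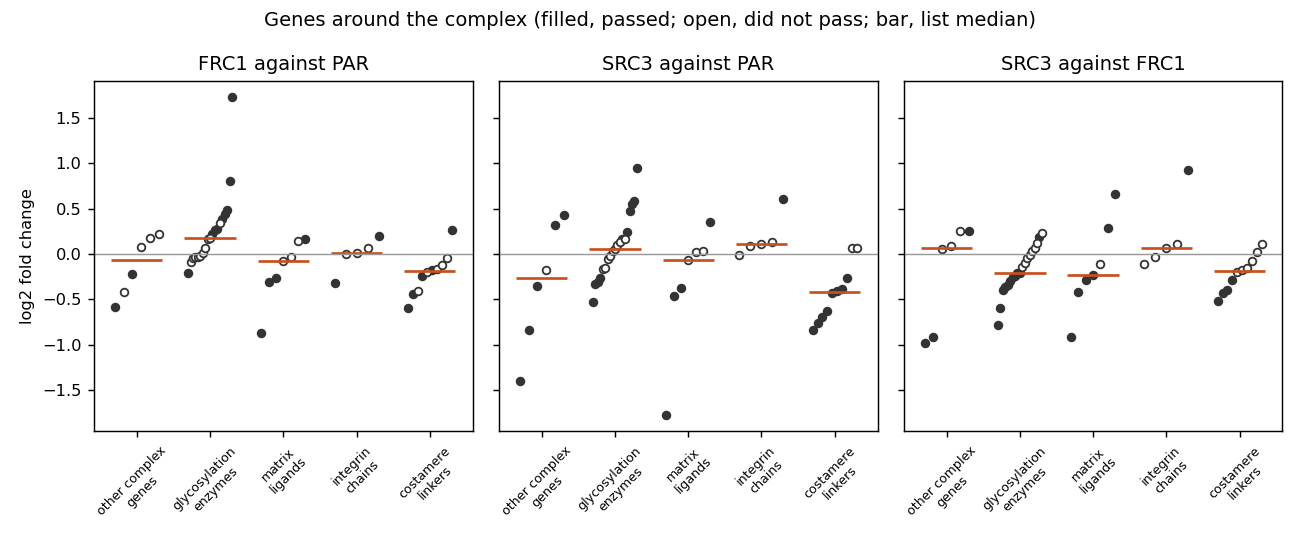
Fitted log2 fold change of every tested gene in the 5 lists around the 8 genes, by comparison. Filled points passed and open points did not, and bars are list medians. The glycosylation enzymes have a median of 0.18 in FRC1 against PAR and -0.21 in SRC3 against FRC1, and the costamere linkers a median of -0.42 in SRC3 against PAR.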

How the data were processed

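Messenger RNA of 9 libraries, 3 each of PAR, FRC1 and SRC3, was measured with stranded TruSeq libraries and single reads, per the labels' protocols. The authors deposited raw counts per gene. Among the tools in the submitters' processing notes are HTSeq 0.9.1 and HISAT2 2.1.0, beside DESeq2 and the build GRCm38. The counting settings, strand included, were not given in the sources used here. Whether reads of overlapping genes on opposite strands were kept apart is therefore not known. The 5 summary lines per file were left out. Reads outside any gene were 5.92 to 7.92% of those with a unique alignment, and reads ambiguous between genes were 1.18 to 1.21%.

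Genes were found by the symbols deposited with the counts. Locations and lengths came from GENCODE M21 (47224 of 47729 identifiers matched) and promoter windows from RefSeq. Groups came from the titles. Counts were filtered with filterByExpr (a count of 10 scaled to depth, 15 in total) and scaled by TMM (factors 0.994 to 1.01). All 9 libraries were fitted together with edgeR 4.0.16 in R 4.3.3 (group as the term, robust quasi-likelihood, two-sided, 6 residual degrees of freedom), and p-values were adjusted over 12540 genes by Benjamini-Hochberg. Replicates differed by more than sampling noise, with a chi-square per degree of freedom of 1.81 to 7.47. Alternatives were other scalings and filters, DESeq2 1.42.0, limma 3.58.1 with voom, fits of the 2 groups compared, a replicate block and leaving out each library. The scripts were tested on simulated data. Log2 CPM for correlations used a prior count of 2. Intervals of count ratios and floors cover counting error only. Those of log2 fold changes come from the edgeR fit and include the scatter between libraries.

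All 8 genes are named, the genes of the list of further complex genes, and of each other list up to 5 that passed with at least 1 CPM, by largest log2 fold change. Some of the genes this rule takes are not reported here, and list counts include them. The members and lists were chosen with earlier results of these data known.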

Additional observations from a re-analysis of the deposited data

How the results depend on the processing

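Every called result of the genes named in the text kept its direction under the 17 alternatives, where a value could be fitted. The number of the 8 genes called in FRC1 against PAR, 5 in the fit reported, was 3 to 6 when single libraries were left out, with 3 without PAR replicate 3 or FRC1 replicate 2. It was 4 to 5 in SRC3 against PAR (5 reported) and 6 to 7 in SRC3 against FRC1 (7 reported). For the 5 further lists together the calls in FRC1 against PAR, 22, were 14 to 29, with 14 without FRC1 replicate 3. Over all genes that comparison had 3550 calls, and 2327 without FRC1 replicate 3.

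Of 9 same-numbered pairs of libraries 1 had deviations correlated above 0.1 (-0.07 to 0.118), and a pair with unlike numbers reached 0.122. With 3 libraries a group, these values cannot settle whether the replicate numbers pair the libraries. With the replicate block 5, 5 and 7 of the 8 genes were called in the 3 comparisons, as without it, and 3560, 4798 and 4221 of all genes. Among named genes the block moved Lama5 in FRC1 against PAR (adjusted p = 0.063) and, in SRC3 against FRC1, Ank3 (0.12) and Dtna (0.042) to the other side of the threshold.

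Dmd could not be tested under the filter of 5 CPM in 3 libraries, nor against SRC3 when only the groups compared were fitted. At 1 to 42 reads per group, depth limits what can be said of Dmd, Cav3, Nos1 and Sgcz. Where a library is left out, its group holds 2 and shares the spread estimated from all groups.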
